A study of Homo sapiens with 16 samples.

Results

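Annotated retained introns held 1033 of the 36970 merged m6A regions of the C4-2B and MDV-R prostate cancer lines, in 822 protein-coding genes. A merged region was taken as a member when its midpoint lay in an exon of a GENCODE transcript of the type retained_intron and in no exon of the canonical transcript of that gene, on chromosomes 1 to 22 or X. The choice used annotation and position alone, and no value of the peak lists. For comparison, 13844 merged regions had their midpoint in an exon of a canonical transcript, and 8842 had it in a canonical intron that no annotated exon covers, here called unexonic intron regions. By share called and by rank of −log10 p, members lay below canonical exon regions and somewhat above unexonic intron regions. Their median fold enrichment was close to that of unexonic intron regions (7.65 and 7.68). Without members in exons of protein-coding or nonsense-mediated decay transcripts, the share called exceeded that of unexonic intron regions by 2.85 points (exact permutation p = 0.180).

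A retained intron is a stretch of intron that stays in a polyadenylated transcript after the rest of the RNA has been spliced. Such transcripts are often held in the nucleus or degraded, and several splicing factor genes use them to limit their own protein level. N6-methyladenosine (m6A), the most common internal modification of messenger RNA, is written on nascent RNA by the METTL3 and METTL14 complex, mostly in long exons and near stop codons, so that intron sequence still present at the time of writing can carry it as well. MeRIP-seq enriches RNA fragments with an antibody to m6A (the IP library) and compares them with the unenriched RNA (the input library).

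C4-2B is a castration-resistant human prostate cancer cell line, and MDV-R is its derivative selected for resistance to the androgen receptor antagonist enzalutamide. Both were labelled wild type, grown in RPMI medium with serum, and harvested at day 3, and per the study's methods MDV-R was kept in enzalutamide, so that line and drug cannot be told apart. The cell line field of the labels, which reads MDVR, set the group of these samples, whereas their titles name a different line. Each line was profiled in 4 replicates, each with 1 IP and 1 input library from total RNA, 16 samples in all, and peaks of each IP library over input gave 8 lists. Parental and resistant cells are represented by a single line each, and the labels do not say whether replicates were separate cultures, so that p-values below measure the spread between these samples, which may be technical. Titles of the MDV-R samples carry a second line name, and the cell line field was followed.

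Summit windows of 8 members show what the antibody signal sat on. They comprise the strongest members called in both lines and members called in 1 line only. They were chosen by the rules given with their values below, and windows over an annotated UTR or a canonical exon are not printed. Each line gives 101 nt of hg38 around the median summit, 5′ to 3′ on the strand of the host gene, in lower case, with the core of the m6A consensus, GGAC, in capitals where it occurs.
CAMKK1 summit, chr17:3895153-3895253, minus strand: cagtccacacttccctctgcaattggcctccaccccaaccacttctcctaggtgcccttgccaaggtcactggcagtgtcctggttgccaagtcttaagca
OTUB1 summit, chr11:63985771-63985871, plus strand: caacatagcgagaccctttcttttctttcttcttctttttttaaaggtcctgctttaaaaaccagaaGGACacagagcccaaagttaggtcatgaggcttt
SPG7 summit, chr16:89522616-89522716, plus strand: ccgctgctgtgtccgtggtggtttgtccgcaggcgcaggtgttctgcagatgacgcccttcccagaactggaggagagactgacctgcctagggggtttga
CASP8 summit, chr2:201240458-201240558, plus strand: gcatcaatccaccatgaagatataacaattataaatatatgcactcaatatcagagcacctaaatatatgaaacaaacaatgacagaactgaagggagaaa
LMF1 summit, chr16:873250-873350, minus strand: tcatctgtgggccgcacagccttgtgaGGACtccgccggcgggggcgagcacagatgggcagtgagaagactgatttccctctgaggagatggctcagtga
BCDIN3D summit, chr12:49842466-49842566, minus strand: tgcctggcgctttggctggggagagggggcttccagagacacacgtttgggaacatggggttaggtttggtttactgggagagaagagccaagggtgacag
LPO summit, chr17:58251547-58251647, plus strand: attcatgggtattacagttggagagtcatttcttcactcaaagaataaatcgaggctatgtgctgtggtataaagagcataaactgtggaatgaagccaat
KLHL36 summit, chr16:84659635-84659735, plus strand: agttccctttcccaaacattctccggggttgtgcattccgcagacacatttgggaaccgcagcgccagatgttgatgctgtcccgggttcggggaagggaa
The core occurred in OTUB1 and LMF1, in 1 copy each, and in none of the other 6 windows. In CAMKK1 and OTUB1 the median summit lay outside the retained exon, and the GGAC of OTUB1 did as well. The GC content of the 8 windows ran from 31.7% in CASP8 to 61.4% in SPG7 and LMF1. The share of all called members with the core is given below.

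The lists held 13191 to 24746 peaks in C4-2B and 23880 to 30645 in MDV-R. The number of tags (reads kept by the authors), recovered from the peak statistics, was 0.864 to 1.21 M (1000000 tags) per IP library. Recovered input depth was 0.901 to 1.23 M in the C4-2B lists and 1.60 to 2.97 M in MDV-R, so the ranges of the lines did not overlap, and input depth and line cannot be told apart. C4-2B replicate 1 stood apart with the fewest peaks, and results that rest on it are given without it. Of 9 prostate lineage markers, 6 had a region called in all 8 lists, KLK3 and TMPRSS2 had one in 3 lists of C4-2B and 4 of MDV-R, and ACP3 had no merged region.

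Of 19970 protein-coding genes, 9651 (48.3%) had a transcript annotated as a retained intron, and 8.52% of these held a member. A single member was found in 657 genes, 2 in 129 genes and 3 in 27 genes, and 9 genes held more. TSC2, which encodes tuberin, an inhibitor of mTORC1 signalling, held 5, the largest number. Chromosome 16 carried 112 members (6.15% of its merged regions), ahead of chromosome 19 with 4.70% and chromosome 17 with 4.57%, while chromosome 18 carried the fewest, 7 (1.07%).

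Members lay in short introns. Among the 901 whose midpoint fell inside a canonical intron, the median intron length was 1620 nt (quartiles 601 and 4254), against 10667 nt (3054 and 32504) for unexonic intron regions. The first intron held 14.1% of them, against 23.7% of unexonic intron regions, and the last intron 8.99% against 9.36%. The retained exon spanned the whole intron for 342 members, took in the 3′ splice site alone for 345 and the 5′ splice site alone for 134, and lay inside the intron for 80. The remaining 132 midpoints were outside the canonical transcript.

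The annotation does not separate intron retention from other sources cleanly. The libraries were made from total RNA, so a retained intron and an intron not yet spliced cannot be told apart. In 685 members the region reached into a canonical exon of the host, with a median of 25.9% of its length there, and 348 shared no base with one. For 225 members the midpoint was also in an exon of a protein-coding or nonsense-mediated decay transcript of the host. The peaks carry no strand, 199 members lay in more than 1 protein-coding gene and 214 had a gene on the opposite strand, so that their host is uncertain. Members had a median length of 429 nt, against 396 nt for unexonic intron, 688 nt for canonical exon and 537 nt for all merged regions.

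Members were called in more MDV-R than C4-2B lists, as were merged regions in general. A member counted as called in a list when a peak overlapped it by at least 1 base. The share called was 17.0%, 47.5%, 39.8% and 40.0% in C4-2B replicates 1 to 4, and 48.5%, 59.6%, 44.0% and 74.6% in MDV-R replicates 1 to 4. C4-2B replicate 1 was far below the rest and MDV-R replicate 4 far above, and C4-2B replicate 2 exceeded MDV-R replicate 3. The means were 36.1% ± 13.2 (SD, n = 4) and 56.7% ± 13.6 (n = 4), a difference of 20.6 percentage points (exact two-sided permutation test, p = 0.0571, adjusted 0.0634 over 10 tests). For all merged regions the shares were 48.6% ± 12.5 and 62.1% ± 6.31.

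Divided by the share of all merged regions called in the same list, the members' share was 0.722 ± 0.111 in the C4-2B lists and 0.905 ± 0.130 in MDV-R (n = 4 each, exact permutation p = 0.0571, adjusted 0.0634). The difference of 0.183 was 0.0390 for members with no base in a canonical exon and 0.0717 with lists of equal size (exact permutation p = 0.514 and p = 0.257). MDV-R replicate 4 was the only list in which members were called more often than the average region, at 1.07. With every list limited to as many peaks as the smallest one held, the difference in share between lines was 2.95 percentage points (exact permutation p = 0.257). Equal lists tend to bring the share of any class closer between lines by construction, so the part of list size was not tested.

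**Figure D1:**
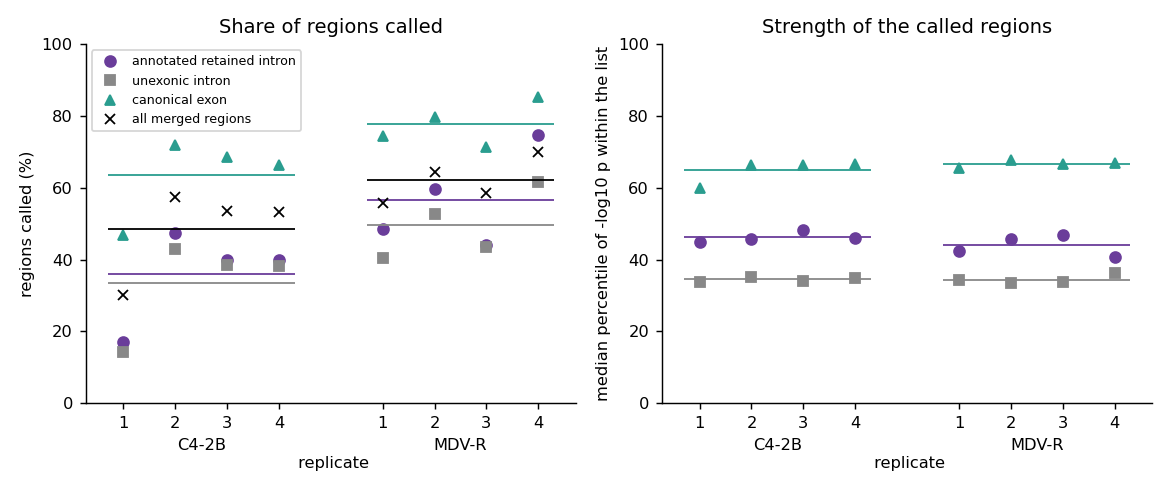
Share of regions called (left, %) and median within-list percentile of −log10 p among called regions (right) in each of the 8 lists, by region class, with horizontal lines at the mean of each line. Members (circles) lie between unexonic intron regions (squares) and canonical exon regions (triangles) in every list for strength and for share called. The mean share of members over the 8 lists was 46.4%, against 41.5% and 70.6%.

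Against the region class most like them, members were called more often. The share averaged 46.4% over the 8 lists, against 41.5% for unexonic intron regions, and was higher in 8 of 8 lists by a mean of 4.90 points (exact sign-turning permutation test, p = 0.00781, the smallest it can give, adjusted 0.0112). It was below the 70.6% of canonical exon regions in 8 of 8 lists, by a mean of 24.2 points at the same p. Without the 225 members that also lie in an exon of a coding or decay transcript, the difference from unexonic intron regions was 2.85 points (exact permutation p = 0.180). It was 8.72 points for members with no base in a canonical exon and 8.14 points with 1 region per gene (exact permutation p = 0.00781 for each).

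Single members were rarely called throughout. Of the 1033, 147 (14.2%) were called in all 8 lists, against 25.2% of all merged regions and 9.42% of unexonic intron regions. The most frequent outcome was a call in 1 list (278 members, 26.9%), 226 of them in an MDV-R list, and 47 members had none. More MDV-R than C4-2B lists called 647 members (62.6%, against 48.5% of all merged regions), more C4-2B lists called 135 (13.1%, against 18.0%), and 251 were equal.

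**Figure D2:**
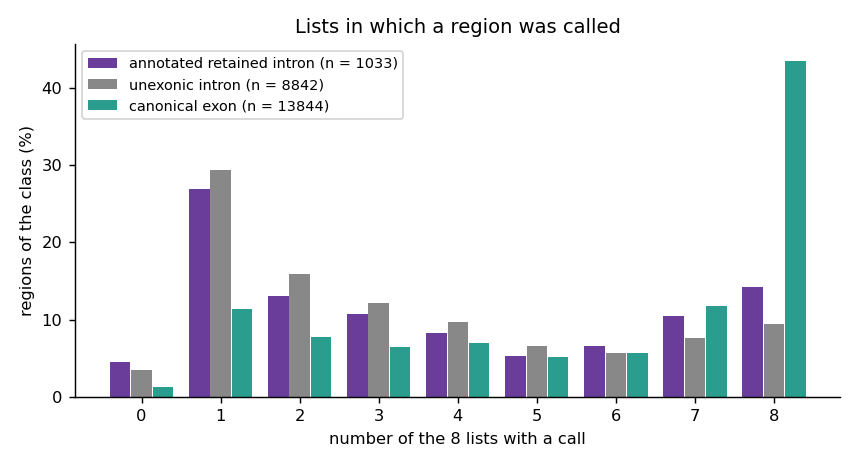
Percentage of each region class (y axis) called in 0 to 8 of the lists (x axis). Members and unexonic intron regions peak at 1 list, at 26.9% and 29.4%, whereas 43.5% of canonical exon regions were called in all 8.

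Few members separated the lines completely. Calls in 4 of 4 C4-2B and no MDV-R list were found for 5 members (0.484%), against 1.19% of all merged regions. The opposite pattern was found for 38 members (3.68%), against 3.59% of all merged regions, a share near the background. By Fisher's exact test per region, 43 of the 986 members with a call (4.36%, against 4.90% of all regions with a call) reached an unadjusted p of 0.0286, the smallest that 4 against 4 allows, and 0 passed after Benjamini-Hochberg adjustment (lowest adjusted p = 0.584). Without C4-2B replicate 1 the first count was 20, and without MDV-R replicate 3 the second was 76. With lists of equal size the counts were 13 and 12. Leaving out a list loosens the rule for every region class, so a count can then only stay or rise. Shares of all merged regions under these settings are not given, so the counts do not set members apart.

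The strength of a called member was taken as the percentile of its −log10 p among the regions called in its list. This takes out list depth only in part, because the ranks depend on how many regions a list called. The median percentile of members was 45.0, 45.7, 48.3 and 46.1 in the C4-2B lists and 42.5, 45.7, 46.9 and 40.7 in the MDV-R lists. These medians overlapped between lines, with a difference of −2.32 (exact permutation p = 0.257). They exceeded those of unexonic intron regions in 8 of 8 lists by a mean of 10.7, and fell short of canonical exon regions in 8 of 8 by a mean of 20.6 (exact permutation p = 0.00781 for each, adjusted 0.0112).

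The fold enrichment, which is the IP signal over local background, did not follow that order. Its median over called members was 7.65 ± 0.393 (SD over 8 lists), close to the 7.68 ± 0.178 of unexonic intron regions and below the 9.06 ± 1.51 of canonical exon regions. The IP level, given as tags at the summit per 1000000 IP tags (counts per M, CPM), had a median of 30.0 ± 2.43 in members, 18.7 ± 1.44 in unexonic intron and 51.5 ± 4.43 in canonical exon regions. Local background, in multiples of the lowest background of the list, was 7.67 ± 1.71, 3.38 ± 0.362 and 13.1 ± 3.81 in the same order. Members therefore stood over a higher background than unexonic intron regions at a like fold enrichment. Local background only approximates the amount of the RNA, and a smaller share of methylated copies and less RNA cannot be told apart in these values.

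Position in the host gene separated members more than the form of the retained exon. Members in the last intron (75, in transcripts with at least 2 introns) were called at a mean share of 55.2%, against 43.4% for 699 in internal introns and 44.6% for 127 in first introns. The last intron was higher than internal introns in 8 of 8 lists, by 11.7 ± 4.84 points in share and 11.1 ± 4.58 in percentile (exact permutation p = 0.00781 for each, adjusted 0.0156 over 10 tests). It was higher than the first intron in 8 of 8 lists by 10.6 ± 4.52 points in share. Members whose retained exon spanned the intron differed from those that did not by −0.896 ± 3.35 points in share (exact permutation p = 0.461). The 225 members also covered by a coding or decay transcript were called 9.44 ± 4.09 points more often than the rest, again in 8 of 8 lists (exact permutation p = 0.00781, adjusted 0.0156). These splits were chosen after seeing the data.

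Summits placed the signal within the region. In 85.6% ± 2.40 of called members (SD over 8 lists) the summit was inside the retained exon itself, and in 19.1% ± 1.46 it was in a canonical exon of the host, which the region touched although its midpoint did not. In 59.4% ± 3.94 it was inside the canonical intron that held the midpoint. Of the summits in the intron, those within 100 nt of the 3′ splice site made up 7.95%, 24.0%, 19.8% and 19.0% in the C4-2B lists. They made up 32.1%, 29.5%, 25.6% and 40.5% in the MDV-R lists, each above every C4-2B list. The difference of 14.2 points had the smallest p that 4 against 4 lists allow (exact permutation p = 0.0286, adjusted 0.100 over 7 summit measures). The share within 100 nt of the 5′ splice site was 7.45% ± 0.637 in the C4-2B lists and 5.55% ± 0.702 in MDV-R (exact permutation p = 0.0286, adjusted 0.100).

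The difference at the 3′ splice site was not seen in members called everywhere. Among the 147 members called in all 8 lists the share was 6.50% ± 2.69 in the C4-2B lists and 7.19% ± 0.707 in MDV-R (exact permutation p = 0.714). It was 0 in every C4-2B list and at most 1.27% in an MDV-R list among members with no base in a canonical exon, where a summit so near an exon is rare by construction. With lists of equal size it was still 13.5 points, and without C4-2B replicate 1 it was 11.0 points (exact permutation p = 0.0286 and p = 0.0571). The p was also 0.0571 (exact permutation test) without C4-2B replicate 4, MDV-R replicate 1 or MDV-R replicate 4. Unexonic intron regions gave 12.5% ± 3.82 and 20.5% ± 6.27 (exact permutation p = 0.0857). The excess of members over unexonic intron regions was 5.24 ± 3.52 points in the C4-2B lists and 11.4 ± 2.25 in MDV-R (exact permutation p = 0.0286, not adjusted). The introns of members were shorter (median 1620 nt against 10667 nt), and 685 members reached into a canonical exon. The part of these traits in the excess was not tested. Input depth differed between the lines in the same direction as the summit share, and its part in the difference was not tested. The summit measures were added after seeing the data.

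**Figure D3:**
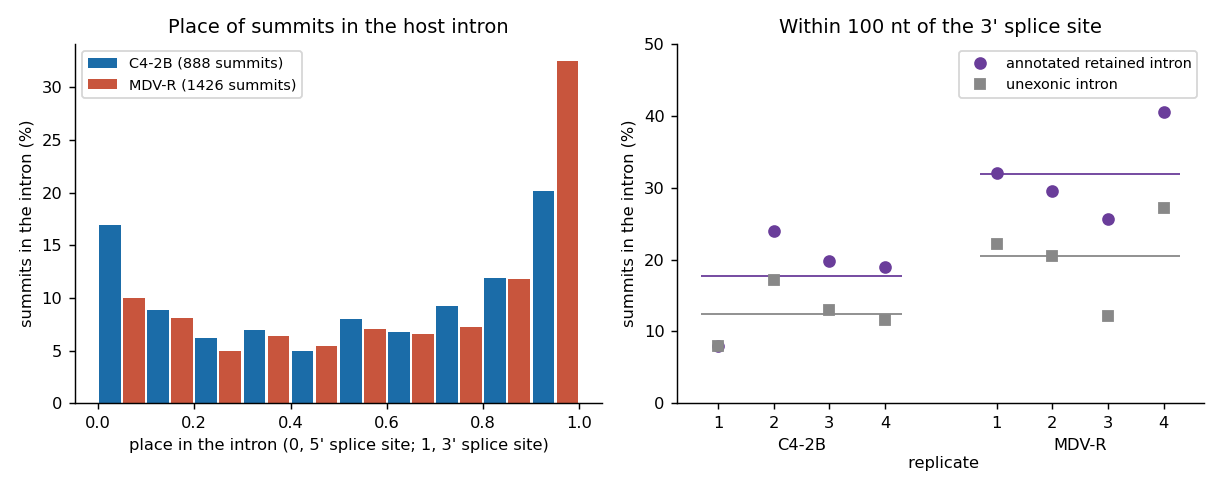
Left, place of the summits of called members along the host intron (0, 5′ splice site, 1, 3′ splice site) as a percentage of the summits of a line in 10 equal bins, pooled over its 4 lists. Right, share of summits in the intron within 100 nt of the 3′ splice site in each list for members (circles) and unexonic intron regions (squares), with horizontal lines at the mean of each line. The last bin holds 20.2% of C4-2B and 32.5% of MDV-R summits.

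The m6A core was enriched at members' summits. GGAC was searched within 50 nt of the summit, on the host strand and, as a control of equal GC content, on the opposite strand. It occurred on the host strand in 46.0%, 41.8%, 44.8% and 46.0% of called members in the C4-2B lists and 40.7%, 39.3%, 45.5% and 40.6% in the MDV-R lists. The mean of 43.1% ± 2.77 exceeded the opposite strand (36.0% ± 1.31) in 8 of 8 lists by 7.11 points and windows 300 nt away (32.6% ± 1.48) by 10.5 points (exact permutation p = 0.00781 for each, adjusted 0.0112). The definition of members moved the strand difference both ways. It was 2.63 points in members covered by no coding or decay exon (exact permutation p = 0.0703) and 16 points in those with no base in a canonical exon (exact permutation p = 0.00781), where the difference from windows 300 nt away was 18.4 points.

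Unexonic intron summits held GGAC in 36.8% ± 1.64 and canonical exon summits in 48.2% ± 1.25. Members exceeded unexonic intron summits by 6.30 points (exact permutation p = 0.00781, adjusted 0.0112), but their GC content was also higher, at 54.7% ± 0.550 against 47.7% ± 0.646, and so was the motif 300 nt away, at 32.6% against 25.4%. The part of base composition in that difference was not tested. With the longer consensus DRACH, in which the first base is A, G or T, the second A or G and the last A, C or T, the difference from unexonic intron regions turned to −4.48 points. DRACH occurred in 82.4% ± 2.04 of member windows on the host strand and 80.8% ± 1.18 on the opposite strand, a difference of 1.58 points (exact permutation p = 0.125), and the difference from windows 300 nt away was 1.85 points (exact permutation p = 0.0703). A match describes letters in the window and is not a mapped m6A site.

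**Figure D4:**
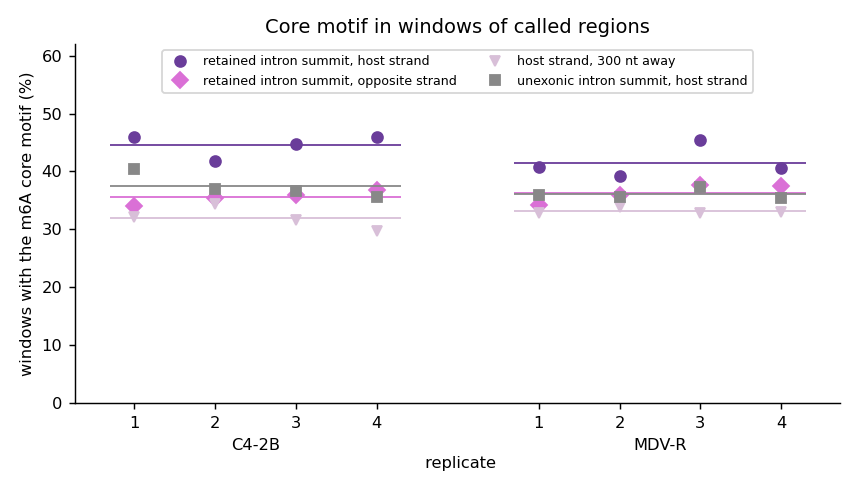
Percentage of 101-nt windows with the m6A core motif in each list, for members at the summit on the host strand and on the opposite strand, for members 300 nt away, and for unexonic intron summits, with horizontal lines at the mean of each line. The host strand at members' summits is highest in all 8 lists, between 39.3% and 46.0%.

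The strongest members, named as the 8 with the highest mean percentile among those called in all 8 lists, in 1 protein-coding gene and with no base in a canonical exon, ranged from 78.3 to 90.9 in mean percentile, against a median of 32.7 over called members. MFSD12, which encodes a lysosomal membrane transporter, led with a region at chr19:3538321-3539065. Its IP level was 96.1, 130, 136 and 131 CPM in the C4-2B lists and 95.4, 97.7, 102 and 92.6 CPM in MDV-R. The C4-2B values were above the MDV-R values apart from replicate 1, and the log2 difference was −0.33 ± 0.13 (SE, limma adjusted p = 0.0398). Its local background was also lower, at 36.8 ± 4.85 and 15.0 ± 8.96 multiples of the lowest of the list (limma adjusted p = 0.0142), while its fold enrichment was 9.48 ± 2.16 and 18.3 ± 6.14 (log2 0.90 ± 0.36, limma adjusted p = 0.109). Its midpoint was also in a coding or decay exon.

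CAMKK1, a kinase that activates calmodulin-dependent kinases, held a region at chr17:3894147-3895543, outside the canonical transcript. Its fold enrichment was 31.5, 51.1, 14.2 and 23.6 in C4-2B and 23.7, 27.5, 20.4 and 19.9 in MDV-R, so the groups overlapped. Its summit window, shown above, held no GGAC, and the summit lay outside the retained exon (chr17:3894227-3894891). ALG11, a mannosyltransferase of N-glycan assembly, held a region in intron 1 of 3 (chr13:52015618-52017494), with its midpoint also in a coding or decay exon. The fold enrichment of this region was 12.6 to 35.1 in the C4-2B lists and 19.6 to 40.8 in MDV-R.

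OTUB1, a deubiquitinase, had a region at chr11:63985555-63986403, with its midpoint outside the canonical transcript. Its median summit lay outside the retained exon (chr11:63985853-63986514), and so did the GGAC of its window. Its IP level was 37.3, 47.6, 48.2 and 55.6 CPM in the C4-2B lists and 54.4, 59.5, 68.2 and 62.5 CPM in MDV-R. MDV-R was higher but for 1 overlapping pair (log2 0.38 ± 0.16, limma adjusted p = 0.0541). SPG7, the paraplegin subunit of a mitochondrial protease, held a region in intron 3 of 16 (chr16:89522089-89523059). Its IP level was 46.4 to 89.2 CPM in the C4-2B lists and 66.6 to 81.4 CPM in MDV-R, and relative to the canonical exon regions of SPG7 it was higher in MDV-R by 0.59 ± 0.16 on the log2 scale (limma adjusted p = 0.0390).

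CASP8, the initiator caspase of death receptor signalling, had a region at chr2:201240199-201241152, with its midpoint outside the canonical transcript. The IP level of this region was 79.6, 103, 92.2 and 112 CPM in the C4-2B lists and 49.9, 52.1, 57.5 and 56.9 CPM in MDV-R. Every MDV-R value was lower than every C4-2B value (log2 −0.83 ± 0.15, limma adjusted p = 3.74e-07). Its local background fell as well, from 25.6 ± 9.38 to 7.95 ± 4.25 multiples of the lowest of the list, and its fold enrichment was 10.9 ± 3.38 and 16.4 ± 5.89 (limma adjusted p = 0.293). TBC1D17, a Rab GTPase-activating protein, had a region in intron 3 of 16 (chr19:49878701-49879462) whose IP level was 59.9 ± 13.1 CPM in the C4-2B lists and 84.4 ± 5.02 CPM in MDV-R (log2 0.52 ± 0.15, limma adjusted p = 0.00254). ACSF3, a mitochondrial malonyl-CoA synthetase, had one in the last of its 10 introns (chr16:89150288-89151541) at 61.3 ± 12.9 and 54.7 ± 10.1 CPM (limma adjusted p = 0.468).

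The 5 members called in every C4-2B and no MDV-R list were mostly weak. CPT1C, the brain isoform of carnitine palmitoyltransferase 1, had the strongest, in intron 15 of 19 (chr19:49710192-49710967). Its fold enrichment was 10.5, 24.7, 16.8 and 17.2 in C4-2B replicates 1 to 4. CNKSR2, a scaffold of Ras pathway signalling, followed in intron 20 of 21 (chrX:21641363-21641998) with 6.10, 14.7, 12.1 and 15.3. LMF1, a lipase maturation factor (chr16:873133-873523), had 7.22, 6.43, 5.88 and 14.5. BCDIN3D, an RNA methyltransferase (chr12:49842065-49842897), had fold enrichments of 5.95 to 7.69. Its IP level ran from 15.7 to 25.8 CPM, below the median of called members in every C4-2B list (28.7 to 33.2 CPM). With lists of equal size LMF1 was called in 2 C4-2B lists, and BCDIN3D in 1. The midpoint of the CNKSR2 region was also in a coding or decay exon. Canonical exons held 300 of the 776 bases in CPT1C and 44 of the 833 in BCDIN3D.

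Of the 38 members called in every MDV-R and no C4-2B list, the 5 with the highest mean percentile are described. PPP4C, the catalytic subunit of protein phosphatase 4, had a region over intron 1 of 8 (chr16:30076090-30076432), which the retained exon spans and which is only 220 nt long. Its IP level was 54.4, 59.5, 70.1 and 56.9 CPM. LPO, lactoperoxidase, followed in intron 7 of 12 (chr17:58250517-58251839) with 49.9, 35.1, 43.8 and 42.4 CPM. SRRM2, a scaffold of nuclear speckles and the spliceosome, had 66.6, 63.7, 66.2 and 70.3 CPM in intron 12 of 14 (chr16:2769545-2770356), over a high background (38.6 ± 15.2), so its fold enrichment was only 3.20 to 7.61. KLHL36, a Kelch family protein (chr16:84659509-84659846), and UBN2, a subunit of the HIRA histone chaperone complex (chr7:139293611-139293918), had 20.0 to 33.5 and 18.5 to 28.7 CPM. With lists of equal size KLHL36 was called in 2 MDV-R lists and UBN2 in 1. The midpoints of the PPP4C and SRRM2 regions were also in a coding or decay exon. Canonical exons held 123 of 343 bases in PPP4C, 105 of 1323 in LPO and 87 of 338 in KLHL36. They held 30 of 308 in UBN2 and 5 of 812 in SRRM2. A missing call gives no level, so no fold between lines is given for these 10 regions.

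Values in all 8 lists allowed a test between lines for 147 members. For fold enrichment, 4 members (2.72%) were higher in MDV-R, against 3.02% of the 9327 regions tested, and 0 were lower, against 0.214% (limma, adjusted p under 0.05). At an unadjusted p under 0.05 the counts were 29 (19.7%, against 23.5% of all regions tested) and 2 (1.36%, against 1.39%). The median log2 difference was 0.32 over members and 0.44 over all regions, whereas that of local background was −0.50 and −0.48, and that of the IP level 0.00 and 0.06. The count of 4 rested on single lists: it was 23 without MDV-R replicate 3, 0 without MDV-R replicate 2 or 4, 1 without C4-2B replicate 2 or 4 or MDV-R replicate 1, and 2 without C4-2B replicate 3. Shares of all regions tested are not given for these settings.

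PITX1, a homeobox transcription factor, had the largest of these changes, in a region at the end of intron 1 of 2 (chr5:135031326-135031881). Of its 556 bases, 183 were in a canonical exon, and its median summit lay 21 nt from the 3′ splice site. Its fold enrichment was 5.82, 12.0, 6.52 and 8.05 in C4-2B and 21.3, 28.8, 12.9 and 23.3 in MDV-R, without overlap (log2 1.41 ± 0.36, limma adjusted p = 0.0132). Its IP level was 112 ± 20.1 CPM in the C4-2B lists and 104 ± 5.42 CPM in MDV-R (limma adjusted p = 0.644), while its local background was 40.4 ± 8.42 and 12.6 ± 5.60. The region of ENSG00000254732 (chr11:57796200-57796947), which lies in 3 protein-coding genes, and that of PDPK1, the kinase that activates AKT (chr16:2557107-2558035), showed the same combination. Their log2 differences in fold enrichment were 1.16 and 1.15 (limma adjusted p = 0.0476 and 0.0478), and those in IP level −0.02 and 0.25. The midpoint of the ENSG00000254732 region was outside the canonical transcript. In PDPK1, 261 of the 929 bases were in a canonical exon, and the median summit lay 1 nt from the 3′ splice site. The part of the adjoining exon in the PITX1 and PDPK1 signal was not tested.

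KCP, a secreted modulator of BMP signalling, differed from these. The IP level of its region (chr7:128870096-128871094) was 22.4, 29.7, 27.9 and 24.3 CPM in the C4-2B lists and 62.1, 79.7, 80.8 and 64.7 CPM in MDV-R, without overlap (log2 1.46 ± 0.18, limma adjusted p = 6.88e-15). Its fold enrichment rose by 1.36 ± 0.36 on the log2 scale (limma adjusted p = 0.0180), at a local background of 8.03 ± 4.55 and 8.15 ± 2.25. The midpoint of the region was outside the canonical transcript and in a coding or decay exon. The region also lies over ATP6V1FNB on the opposite strand, so its host is uncertain. Each of these 4 calls was lost when certain single lists were left out, with a highest adjusted p of 0.139 for PITX1, 0.124 for KCP, 0.259 for ENSG00000254732 and 0.295 for PDPK1 (limma).

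The IP level itself was higher in MDV-R for 22 members (15.0%, against 20.8% of 9323 regions tested) and lower for 26 (17.7%, against 14.8%, limma adjusted p under 0.05). With the median of each list set equal these counts were 25 and 48, so the split between higher and lower depends on the scaling. Without C4-2B replicate 1 they were 48 and 62. Shares of all regions tested are not given for these alternatives, so the changed counts do not set members apart. Because an IP level follows the amount of the RNA, each member was also set against the canonical exon regions of its own gene. Among called members, 56.3% ± 8.88 per list had a called canonical exon region in the gene, and 322 members lay in genes without any. Of those with one, 15.4% ± 3.37 had a higher IP level than every canonical exon region of the gene, and 31.6% ± 10.4 a higher fold enrichment.

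For 52 members both levels were known in all 8 lists. Their median level was −0.57 on the log2 scale relative to the host exons (quartiles −1.56 and −0.02), and 13 stood above them. Relative to host exons 6 members were higher in MDV-R (11.5%, against 6.06% of 2672 regions) and 8 were lower (15.4%, against 7.45%, limma adjusted p under 0.05), with a median difference of −0.04, against −0.01 over all regions. The 2672 regions include canonical exon regions set against the other exon regions of their gene, so they are not a like background for members. Without C4-2B replicate 1 the 8 members that were lower became 14. The 4 furthest in each direction are described.

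ALG1, the first mannosyltransferase of N-glycan assembly, had the largest rise (chr16:5041912-5042856). The midpoint of its region was outside the canonical transcript and in a coding or decay exon. The IP level of its member was 7.46, 11.9, 10.7 and 13.9 CPM in the C4-2B lists and 36.6, 29.7, 33.1 and 39 CPM in MDV-R. That of its canonical exon region was 105 ± 15.9 and 89.4 ± 2.78 CPM. The member relative to the exon region rose by 1.90 ± 0.16 on the log2 scale (limma adjusted p = 8.44e-05). PGGHG, a glucosidase of collagen glycans, rose by 0.80 ± 0.11 (limma adjusted p = 0.00148) in intron 4 of 13 (chr11:290279-291952), with 21.1 ± 2.76 and 52.3 ± 5.79 CPM in the member and 59.8 ± 7.10 and 85.0 ± 7.37 CPM in the exon region. Of the 1674 bases of the PGGHG member, 647 were in canonical exons, and their part in its signal was not tested.

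In ZNF814 and DRC3 the level of the exon region was lower in MDV-R, and the member was not higher. The ZNF814 member was itself lower, by less than its exon region (log2 −0.48 ± 0.14, limma adjusted p = 0.00224). The log2 difference of the DRC3 member was −0.12 ± 0.26 (limma adjusted p = 0.753). ZNF814, a zinc finger gene (chr19:57858697-57860197), had 122 ± 16.1 and 86.6 ± 1.26 CPM in the member and 98.4 ± 17.8 and 40.6 ± 11.4 CPM in the exon region (log2 0.82 ± 0.19, limma adjusted p = 0.0161). The region, with its midpoint outside the canonical transcript, also overlaps ZNF587 on the opposite strand. DRC3, a subunit of the dynein regulatory complex of cilia (chr17:18004170-18004936), had 14.2 ± 1.96 and 13.1 ± 2.54 CPM against 27.3 ± 4.28 and 15.5 ± 3.13 CPM (log2 0.71 ± 0.17, limma adjusted p = 0.0191). DRC3 overlaps ATPAF2, and its call was lost without some single lists (limma, highest adjusted p = 0.0609). Of the 767 bases of the DRC3 region, 132 were in canonical exons.

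SEMA4D, a membrane semaphorin, had a lower IP level in the member itself (chr9:89360695-89362522). The midpoint of its region was outside the canonical transcript and in a coding or decay exon. Its IP level was 48.1, 56.5, 51.4 and 62.5 CPM in the C4-2B lists and 28.9, 18.1, 20.4 and 22.3 CPM in MDV-R, while that of its 2 canonical exon regions was 34.8 ± 6.33 and 38.4 ± 2.52 CPM. The relative level fell by 1.46 ± 0.16 on the log2 scale (limma adjusted p = 2.33e-04), from above the host exons in every C4-2B list to below them in every MDV-R list. Its local background fell as well, from 9.56 ± 4.23 to 2.46 ± 0.566 (limma adjusted p = 0.0115), and its fold enrichment was 14.5 ± 6.59 and 12.5 ± 2.93 (limma adjusted p = 0.813). WDR27, a WD repeat protein gene, fell by 1.74 ± 0.23 (limma adjusted p = 0.00119) in intron 1 of 25 (chr6:169694674-169695179). There the member went from 30.1 ± 5.84 to 20.0 ± 4.71 CPM and the exon region from 32.8 ± 5.10 to 71.9 ± 7.67 CPM.

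TACC2, a microtubule-associated coiled-coil protein, and FOXP1, a forkhead transcription factor, were lower relative to their exon regions as well. The exon regions of TACC2 went from 95.3 ± 21.5 to 178 ± 3.34 CPM and its member in intron 2 of 22 (chr10:122022325-122022953) from 14.8 ± 1.92 to 12.6 ± 2.60 CPM (log2 −1.18 ± 0.24, limma adjusted p = 0.0115). FOXP1 had 38.8 ± 5.84 and 28.6 ± 6.77 CPM in intron 2 of 20 (chr3:71579654-71580351) and 72.1 ± 12.3 and 97.5 ± 5.94 CPM in the exon region (log2 −0.91 ± 0.16, limma adjusted p = 0.00521). The log2 difference of the member itself was −0.60 in WDR27, −0.25 in TACC2 and −0.46 in FOXP1, so the exon side held a large share of each relative change. WDR27 and FOXP1 regions each lie in 2 protein-coding genes.

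**Figure D5:**
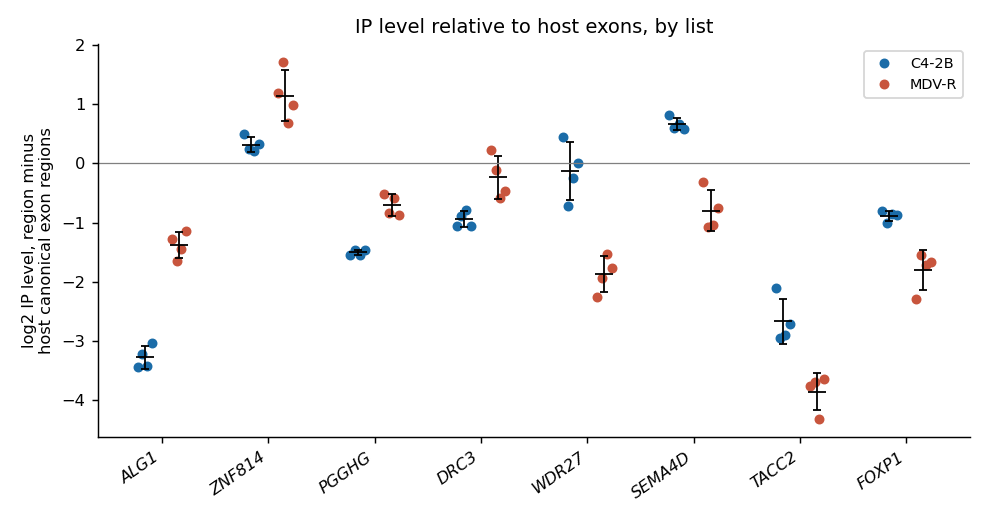
IP level at the summit of 8 members relative to the mean of the canonical exon regions of the same gene (y axis, log2), with 1 point per list, C4-2B in blue and MDV-R in red, and the mean ± SD in black. ALG1, ZNF814, PGGHG and DRC3 are higher in MDV-R and WDR27, SEMA4D, TACC2 and FOXP1 lower, without overlap between lines in any of the 8.

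Members were found in every list of splicing genes. For comparison, 8.52% of all genes with a retained intron transcript held a member. Of 12 SR protein and TRA2 genes with a retained intron transcript, SRSF1 alone (8.33%) held one (chr17:58006790-58007748), called in 3 lists of C4-2B and 4 of MDV-R. Its IP level in the lists that called it was 49.8 to 55.5 CPM in the C4-2B lists and 41.3 to 48.8 CPM in MDV-R. The midpoint of the SRSF1 region was outside the canonical transcript and in a coding or decay exon. Of its 959 bases, 303 were in canonical exons, and another gene lies on the opposite strand. Of 19 hnRNP genes 5 (26.3%) held 6 members, and of 37 genes of spliceosome components 5 (13.5%) held 7. All 13 were called in more MDV-R than C4-2B lists, as were 647 of the 1033 members, and none was called in all 8.

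Among the hnRNP genes, which package and splice pre-mRNA, SYNCRIP was called in 7 lists and HNRNPAB in 3 MDV-R lists. HNRNPA2B1, HNRNPM and HNRNPU were called in 1 or 2 lists per member, all of MDV-R. The strongest regions of SYNCRIP, HNRNPM and HNRNPU also had their midpoint in a coding or decay exon. Among spliceosome components, SRRM2 is described above and RBM17 was called in 2 lists of C4-2B and 3 of MDV-R. The 2 members of ACIN1 were each called in 1 MDV-R list. RBM25 and U2AF2, whose product binds the polypyrimidine tract of introns, were each called in MDV-R replicate 4 only, the list with the most peaks. CLK3, a kinase of SR proteins and the only one of 8 splicing kinase genes with members (12.5%), held 2. The member in its last intron (chr15:74628974-74630041) was called in all 8 lists at 43.7 ± 5.83 CPM in the C4-2B lists and 38.6 ± 3.91 CPM in MDV-R (log2 −0.17 ± 0.18, limma adjusted p = 0.485). Of the 1068 bases of this member, 394 were in canonical exons.

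OGT, whose detained intron is known to respond to protein glycosylation, held 1 member (chrX:71544468-71544990), and it was the only one of 3 such genes of sugar and methyl donor metabolism to do so. It was called in 3 lists of each line, with fold enrichments of 3.14 to 3.32 in the C4-2B lists and 1.91 to 6.48 in MDV-R. The midpoint of the OGT region was also in a coding or decay exon. CASC3, a component of the exon junction complex, was the only one of 13 nonsense-mediated decay genes with a member (7.69%), called in 2 lists of each line. Of 14 genes of the m6A machinery, IGF2BP3 (7.14%), a reader of m6A, held 1, called in all 8 lists (chr7:23414657-23415467). Its fold enrichment was 8.30, 16.5, 22.1 and 17.5 in C4-2B and 6.04, 14.1, 8.96 and 10.9 in MDV-R, with overlap between the lines (log2 −0.67 ± 0.36, limma adjusted p = 0.224).

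Of 13 genes of the androgen receptor and its targets, 4 (30.8%, against the 8.52% of all such genes) held 5 members. KLK2, a kallikrein, had a member in its last intron (chr19:50877314-50877989) called in 3 C4-2B lists at 72.9 to 78.7 CPM and in 1 MDV-R list at 15.6 CPM. Its local background was 55.1 to 78.8 and 3.02 in these lists, and its fold enrichment 2.91 to 3.81 and 7.89. KLK3, which encodes prostate-specific antigen, had one called in MDV-R replicate 4 only. STEAP2, a metalloreductase, was called in 3 lists of C4-2B and 4 of MDV-R at 67.0 ± 6.01 and 61.9 ± 4.44 CPM. Of 28 DNA damage response genes, 3 (10.7%) held a member, of which PALB2 and XRCC3 had theirs called in 1 MDV-R list each. The member of RAD51C, a gene of homologous recombination (chr17:58692795-58693788), was called in all 8 lists. Its midpoint was also in a coding or decay exon. Its IP level was 39.8, 40.6, 38.6 and 49.8 CPM in the C4-2B lists and 18.9, 13.8, 13.6 and 13.4 CPM in MDV-R, without overlap (log2 −1.51 ± 0.21, limma adjusted p = 3.72e-11). Its local background fell too, from 13.4 ± 5.96 to 3.48 ± 0.606, and its fold enrichment was 8.66 ± 3.38 and 7.24 ± 1.54 (limma adjusted p = 0.718). Over all 9 gene lists, only the members of CLK3, IGF2BP3 and RAD51C were called in all 8 lists and could be tested for fold enrichment, which none of these passed, and no member could be tested relative to host exons.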

How the data were processed

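RNA of 16 samples (8 IP, 8 input) was grouped by the cell line field of the labels. Per the submitters' processing notes and the study's methods, the authors mapped reads with STAR 2.7.0 (hg38), removed multimapped and duplicate reads with SAMtools 1.10, and ran MACS2 3.0.0a6 on every IP replicate against input (no model, extension 100 nt, genome size 300000000 bases), without pooling. The deposited lists give for each peak a fold enrichment (the ratio of IP to local background), a −log10 p-value and a −log10 q-value, and a score that is 10 times the −log10 q rounded down, all made by the authors. Deposited positions and summits are in hg38. A deposited merged list gives 36970 regions without values, and how the authors made it is not given in the sources used here. The differential test of the authors rests on read counts per region, not used here, and was not rerun.

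Members were found with GENCODE release 44, a later one than the authors used, with bedtools 2.31.1. Members and gene lists were chosen with earlier results of these data known. A region took the strongest overlapping peak of a list (at least 1 base). IP tags at the summit, local background and library sizes were solved from fold enrichment and −log10 p, which assumes the stated MACS2 settings, and a whole number of tags fitted 99.99% to 100.0% of peaks per list. Tags are not independent molecules. No interval for counting error was computed, and precision is given by the spread between lists.

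Lines were compared by exact two-sided permutation over the 70 arrangements of 8 lists, and classes by turning signs of within-list differences, with Benjamini-Hochberg adjustment within each family of tests. Regions called in all 8 lists were tested on log2 values with limma 3.58.1 (lmFit, eBayes with trend, R 4.3.3), adjusted over all regions in the fit. Scripts ran in Python 3.11.15 with pandas 2.3.3, scipy 1.17.1 and pysam 0.24.0, and were tested on simulated data. The named regions were the 8 strongest called in all lists, the 5 strongest called in 1 line only, the 4 furthest past the limma threshold in each direction, and up to 4 per gene list. Replicate numbers did not pair samples: correlations of the deviations of same-numbered lists ran from −0.075 to 0.025. Alternatives left out each list, changed overlap, q threshold, list size, member definition, motif, window, scaling or trend, or added a replicate block. Repeat annotation was not used here. The region of 1 gene that the rule names is not reported here.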

Additional observations from a re-analysis of the deposited data

Results flagged for a closer look

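Among 176 groups of 4 lists, 7 held 1 list far from the other 3. Chance flags about 1 in 20 such groups. C4-2B replicate 1, the list with the fewest peaks, was the distant one in 3 groups. It had 80.7% of called members with the summit in the retained exon (84.9% to 85.7% in the other C4-2B lists) and 50% with it in the canonical intron (60.3% to 61.1%). The IP level of the MFSD12 region was 96.1 CPM in it and 130 to 136 CPM in the others.

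In MDV-R replicate 3 the summit was in the canonical intron for 58.5% of called members, against 61.2% to 61.7% in the other MDV-R lists. In MDV-R replicate 2, windows 300 nt from the summits of members held GGAC in 33.9%, against 32.9% to 33.0%. The LMF1 region had a fold enrichment of 14.5 in C4-2B replicate 4 and 5.88 to 7.22 in the others. The BCDIN3D region had an IP level of 25.8 CPM in C4-2B replicate 2 and 15.7 to 17.4 CPM in the others.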

How the results depend on the processing

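Of 665 values of 59 results under alternatives, 583 kept their direction and their side of the threshold (counts, within 1.5 times), 40 moved, 37 became weaker, 2 stronger and 3 reversed. With each list limited to as many peaks as the smallest holds, the members called in every C4-2B and no MDV-R list numbered 13 and the opposite 12, and members higher and lower in IP level numbered 12 and 10. Members higher in fold enrichment numbered 1, and those higher and lower relative to host exons 3 and 2. Fewer regions are then tested. In the same lists, members with a spanning retained exon exceeded the rest by 0.170 points in share (reversed, exact permutation p = 0.891) and by 6.46 in percentile (stronger, exact permutation p = 0.0391), and members reaching into a canonical exon exceeded the rest by 0.454 in percentile (exact permutation p = 0.867). Restricted to members with no base in a canonical exon, the line-only counts were 3 and 13, those for IP level 7 and 13, those for higher fold enrichment 2 and lower relative level 5, and the 3′ splice site difference was 0.536 points. Restricted to members covered by no coding or decay exon, the share called exceeded unexonic intron regions by 2.85 points, the GGAC strand difference was 2.63 points and the count of higher IP levels was 13. With DRACH in place of GGAC, the strand difference was 1.58 points, the difference from windows 300 nt away 1.85 points, and the difference from unexonic intron regions −4.48 points (reversed). With list medians set equal, 48 members were lower in IP level. The cause of these changes was not tested. Shares of all regions under the alternatives are not given beside these counts.

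Leaving out 1 list at a time gave 5 to 20 members called in every C4-2B list only and 38 to 76 in every MDV-R list only, 0 to 23 higher and 0 to 1 lower in fold enrichment, 17 to 48 higher and 21 to 62 lower in IP level, and 7 to 14 lower relative to host exons. The highest counts were without C4-2B replicate 1 (20, 48, 62 and 14) and without MDV-R replicate 3 (76, 23 and 1). Without the matching shares of all regions, these counts do not set members apart. The 3′ splice site difference was 11.0 to 16.3 points, at an exact permutation p of 0.0286 without C4-2B replicate 2 or 3 or MDV-R replicate 2 or 3, and of 0.0571, no longer under 0.05, without any of the other 4 lists. The spanning minus other percentile ran from −0.638, reversed without C4-2B replicate 1, to 1.83, and the coding minus other percentile from 1.58 to 2.91. As a replicate block, the numbers gave 6 members higher in fold enrichment, 25 higher in IP level and 9 lower relative to host exons, and a 3′ splice site difference of 14.2 points (exact sign-turning p = 0.125, the smallest 4 pairs allow), which alone changed side. Restricted to members called in all 8 lists that difference was 0.691 points. It, its restrictions to members called in all 8 lists and to those in 1 protein-coding gene, and the comparisons within members were chosen after seeing the data. Depth limits weak members, for which a missing call does not show absence.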
